A study of Mus musculus with 8 samples.

Results

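This comparison asked what medium that fibroblastic reticular cells (FRC) had themselves conditioned does to the transcripts of the same FRC line, set against fresh medium with water. It used 4 of the 8 RNA sequencing libraries of the series: 2 of FRCs in control conditioned medium (CCM) and 2 of FRCs in vehicle (Veh – H2O). A gene was taken if 3 or more of the 8 libraries held 10 or more counts of it, which gave 12137 of the 55367 genes listed. At this limit, the third highest count was exactly 10 for 113 genes, which were taken, and 1 count lower for 124 genes, which were not.

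The cells were 1 FRC line, made from the lymph nodes of C57BL/6 mice with the p53 ER/ER genotype, so every group shares that background and the replicates are cultures of 1 line. For CCM, RPMI without supplements had stood for a day on FRCs, and was then filtered and frozen. Vehicle was RPMI that no cell had used, with as much water as the lactic acid (LA) medium received. The other 4 libraries were of FRCs in RPMI with 15 mmol/L LA (2 libraries) or in medium conditioned by B16.F10 melanoma cells (TCM, 2 libraries). All media held 2% FBS and antibiotics, and cells were harvested after 4 days. CCM and vehicle therefore differ both in what FRCs released and in what they took up. The day in culture, the filtering and the freezing are described for conditioned media only, and the added water for vehicle. All these differences cannot be told apart.

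FRCs are the fibroblasts that build the reticular network of lymph nodes, along which lymphocytes move, and they carry podoplanin and VCAM-1. A conditioned medium brings secreted proteins and metabolites to the cells and lacks the nutrients already consumed. In dividing cells, transcripts for DNA replication accumulate around the entry into S phase and those for the mitotic spindle before division, so both groups are used as marks of proliferation. Transcript levels do not measure division itself.

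Counted reads were 8784655 and 10764168 with vehicle and 11526867 and 10090989 with CCM, so 3 counts, taken as the detection floor, equalled 0.253 to 0.335 CPM (counts scaled to the size of the library) here. Floors cover counting error only. Replicates differed by more than counting noise, with a chi-square per degree of freedom of 4.91 for vehicle and 3.3 for CCM. Mitochondrially encoded transcripts held 0.842% and 0.632% of the counts with vehicle and 1.06% and 0.903% with CCM. The summed level of 13 FRC markers was 24000 to 24500 CPM with vehicle and 20200 to 22200 CPM with CCM, nearly all of it from collagens. Of the markers, Ccl21a was at 0 in all libraries, Ccl19 had at most 1 count, Cxcl13 had 43 counts in CCM replicate 1 and none elsewhere, and Thy1 and Il7 were no higher than 1.83 CPM in any library. The summed markers of endothelial cells (7 genes, at most 7.39 CPM), leukocytes (7 genes, at most 1.85 CPM), melanoma cells (7 genes, at most 3.42 CPM) and epithelial cells (5 genes, at most 4.53 CPM) were low in all 4 libraries, with Ptprc, Tyr and Epcam at 0.

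With CCM, FRCs held more mRNA for DNA replication and for mitosis, more of the complement protease C1s1 and of the lipid carrier Fabp4, and less mRNA for a smaller set of genes led by the serpin Serpinb9b, the phosphatase Ptprd and, among matrix genes, Timp3. The test was edgeR's quasi-likelihood test with Benjamini-Hochberg adjustment, and genes with adjusted P below 0.05 whose log2 FC exceeded 0.39 in size count as called. By this rule 158 genes differed, 1.3% of those tested: 109 were higher with CCM (0.898%) and 49 were lower (0.404%). In bulk RNA, fewer cells of a kind and less RNA per cell cannot be told apart. The higher genes had a median log2 FC of 0.65, and 6 of them exceeded 1. The lower genes had a median of -0.82, with 13 beyond 1, and the median over all tested genes was 0.00. The plot of adjusted P value against log2 FC shows most called genes lying just past the threshold.

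**Figure D1:**
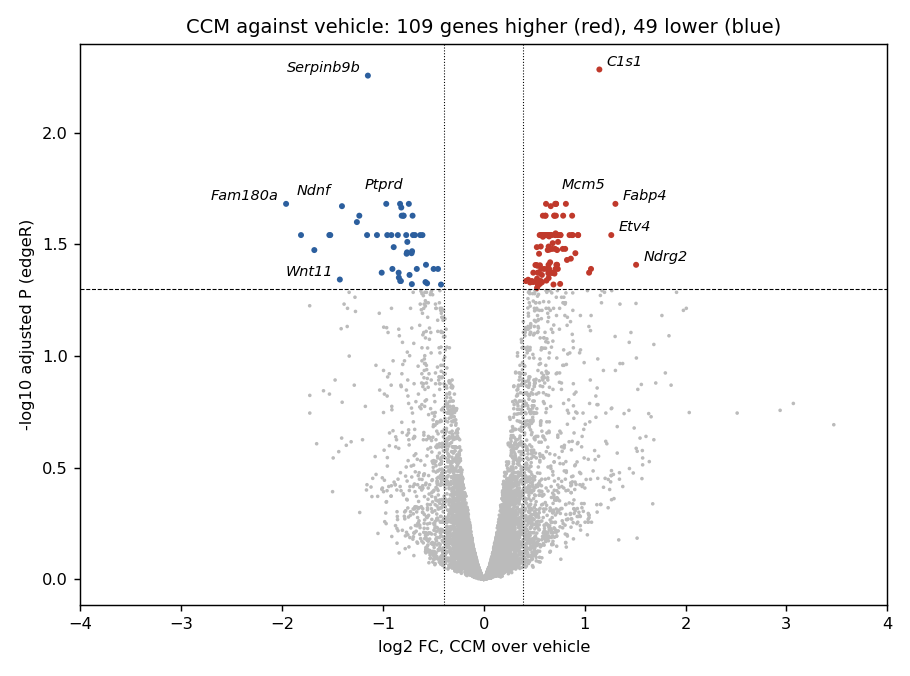
Log2 FC of CCM over vehicle (horizontal) against −log10 of the edgeR adjusted P value (vertical) for 12137 genes. Red points are the 109 genes called higher, blue points the 49 called lower, grey points the rest; the dashed line marks adjusted P = 0.05 and the dotted lines log2 FC of 0.39 in either direction. C1s1 and Serpinb9b stand above all others.

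Nearly all calls needed all 4 libraries. With CCM replicate 1 or vehicle replicate 1 left out no gene was called in edgeR's test, although 901 and 1140 genes had an unadjusted P value under 0.05; without CCM replicate 2, 5 genes were called (C1s1, Serpinb9b, Ifit1, Ifit3 and Iigp1) and without vehicle replicate 2, 2 genes (C1s1 and Serpinb9b). In these fits the lone library was assumed to vary like the other groups. The count also moved with the libraries that lend their spread to the fit, to 497 without TCM replicate 1 and 494 without TCM replicate 2, alternatives added after seeing the data. These libraries had the highest chi-square per degree of freedom between replicates, 20.6. DESeq2 called 237 genes. The lowest adjusted P value over all genes was 0.0052, and 2 libraries against 2 allow no exact permutation P value below 0.333, so single genes rest on the spread shared over the whole table. Tyms (adjusted P = 0.0495) was the last gene called, and Timeless (adjusted P = 0.0509) was among the first not called. All 158 genes had both CCM libraries on 1 side of both vehicle libraries, as had 25.8% (above) and 24% (below) of all tested genes.

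Of the 24 tested genes of the DNA replication list, 15 were called higher with CCM and none lower, where 0.898% of all tested genes were called higher. All 24 had both CCM libraries above both vehicle libraries. Their median log2 FC was 0.57, from 0.23 to 0.94. The group's level held in each library: the median log2 level over the vehicle mean was 0.59 in both CCM libraries, and -0.01 and 0.01 in the vehicle libraries. With any 1 of the 4 libraries left out, the median lay between 0.57 and 0.59. That all 24 genes then stayed above zero follows from the separation of CCM and vehicle libraries and adds no support.

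Origin licensing genes were among those called. Mcm5, a subunit of the replicative helicase, was at 73.7 and 70.2 CPM with vehicle and 118 and 119 CPM with CCM. This is 1.64-fold higher (log2 FC 0.72 ± 0.093 (SE), adjusted P = 0.0208), and its CCM values lay within 1 CPM of each other. Mcm6, of the same ring, stood at 73.6 and 77.2 CPM with vehicle and 122 and 117 CPM with CCM (log2 FC 0.66 ± 0.096 (SE), adjusted P = 0.0213). The other MCM subunits called were Mcm4, with 95.4 and 93.2 CPM with vehicle and 149 and 139 CPM with CCM, Mcm3 and Mcm7. Cdt1, which loads the helicase onto origins, had the highest log2 FC of the list, at 0.94 ± 0.16 (SE) with 22.4 and 18.6 CPM with vehicle and 38.5 and 39.9 CPM with CCM (adjusted P = 0.0287). Its loading partner Cdc6 was at 12.6 and 12.1 CPM with vehicle and 19.99 and 19.7 CPM with CCM, with log2 FC 0.68.

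Polymerase and nucleotide supply genes moved in the same direction. Pola1, the catalytic subunit of the primase-polymerase, measured 39.5 and 42.1 CPM with vehicle and 65.02 and 59.5 CPM with CCM (log2 FC 0.61 ± 0.10 (SE), adjusted P = 0.0287). Pcna, the sliding clamp of the polymerases, went from 95.4 and 93.98 CPM to 134 and 139 CPM, with log2 FC 0.53. For deoxynucleotides, Rrm2, a subunit of ribonucleotide reductase, was at 66.9 and 69.7 CPM with vehicle and 96.2 and 104 CPM with CCM, a log2 FC of 0.55. Tk1, thymidine kinase, was at 37.8 and 32.01 CPM with vehicle and 56.2 and 59.1 CPM with CCM and was called, as was Rrm2. Of the members not called, E2f1, a transcription factor of the S phase genes, had a log2 FC of 0.23 (adjusted P = 0.562) and Ccne2, a cyclin of S phase entry, had 0.44 (adjusted P = 0.167).

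The mitosis list gave nearly the same picture. Of its 26 tested genes, 15 were called higher and none lower, and all 26 had both CCM libraries above both vehicle libraries. The median log2 FC was 0.58, from 0.37 to 0.81. In single libraries the median log2 level over the vehicle mean was 0.60 and 0.56 with CCM and 0.08 and -0.08 with vehicle, so the vehicle libraries differed from each other by less than either did from CCM. Without 1 of the 4 libraries the median lay between 0.48 and 0.68. All 26 stayed above zero each time, which again follows from the separation of the libraries.

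Cyclin B2 (Ccnb2), a partner of the mitotic kinase, was at 28.8 and 24.6 CPM with vehicle and 45.5 and 48.2 CPM with CCM, 1.76-fold higher (log2 FC 0.81 ± 0.11 (SE), adjusted P = 0.0208). Cdk1, that kinase, was at 74.8 and 71.8 CPM with vehicle and 112 and 113 CPM with CCM (log2 FC 0.62, adjusted P = 0.0287). The groups were well apart for both genes. Kif11, the motor that separates the spindle poles, was at 74.8 and 71.5 CPM with vehicle and 118 and 105 CPM with CCM (log2 FC 0.61 ± 0.097 (SE), adjusted P = 0.0235). Nusap1, a microtubule protein of the spindle, was at 28.6 and 27.8 CPM with vehicle and 45.2 and 46.2 CPM with CCM, and Prc1, which bundles the midzone microtubules, was at 60.4 and 61.8 CPM with vehicle and 101 and 98.5 CPM with CCM. Their log2 FC values of 0.70 and 0.71 were above the list's median. Cenpa, the histone of centromeres, had 34.4 and 33.95 CPM with vehicle and 56.8 and 57.2 CPM with CCM and a log2 FC of 0.74. Top2a, the topoisomerase that untangles sister chromatids, was at 219 and 201 CPM with vehicle and 322 and 308 CPM with CCM and was called. Mki67, the gene of the Ki67 antigen, was not called, at 124 and 116 CPM with vehicle and 198 and 175 CPM with CCM (log2 FC 0.63 ± 0.15 (SE), adjusted P = 0.0643). By staining for Ki67 protein, the study reports that neither LA nor TCM changed proliferation of FRCs. Its text gives no such result for CCM against vehicle. Members of both lists beyond the 5 of lowest P value in each were picked for their roles with their values known.

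**Figure D2:**
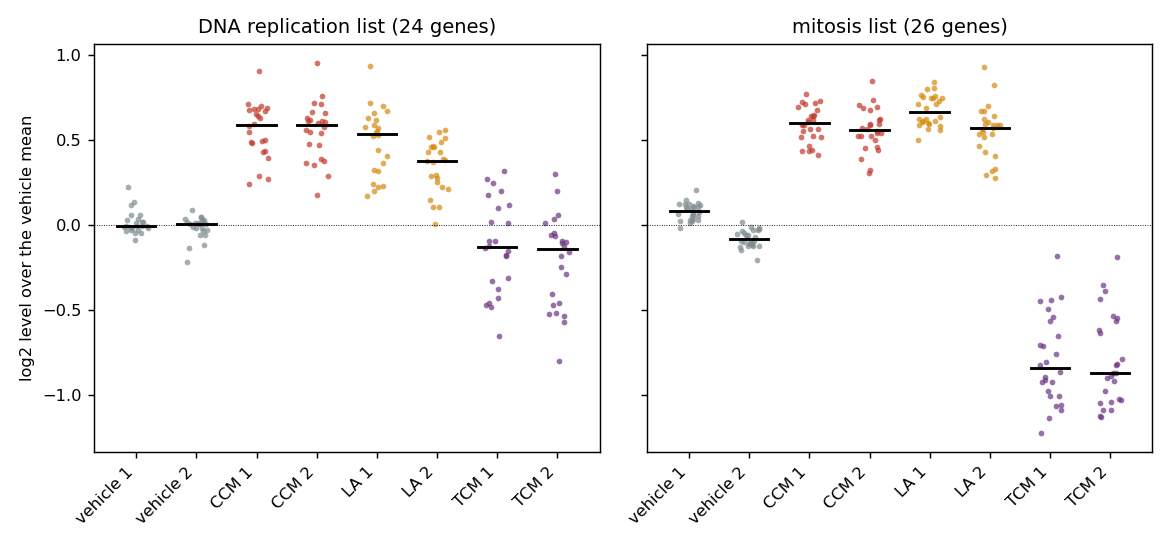
Log2 level of each gene of the DNA replication list (24 genes, left) and the mitosis list (26 genes, right) over its vehicle mean, in each of the 8 libraries. Points are genes and black lines are medians; both CCM libraries have medians of 0.56 to 0.60, and the TCM libraries have the lowest medians of both lists.

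The lists took in 30 of the 109 higher genes, and 79 were in neither. Some of these with the lowest P values also have known roles in the cell cycle. Plk4, the kinase of centriole duplication, was at 29.7 and 29.4 CPM with vehicle and 48.8 and 48.4 CPM with CCM (log2 FC 0.72 ± 0.099 (SE), adjusted P = 0.0208). Wdhd1, a replisome protein, was at 17.1 and 16.9 CPM with vehicle and 31.1 and 27.5 CPM with CCM, and Nuf2, of the outer kinetochore, was at 26.5 and 20.4 CPM with vehicle and 43.8 and 41.8 CPM with CCM. Racgap1, which organizes the cytokinetic furrow, was at 102 and 95.8 CPM with vehicle and 148 and 148 CPM with CCM. Each was called, with log2 FC of 0.79 for Wdhd1, 0.88 for Nuf2 and 0.59 for Racgap1. The spindle protein Tacc3 and the kinase Melk had log2 FC of 0.70 and 0.71.

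Inhibitors of the cycle were read beside them. Cdkn2b, the p15 inhibitor of the cyclin D kinases, was called lower, at 137 and 119.5 CPM with vehicle and 68.7 and 82.97 CPM with CCM (log2 FC -0.76 ± 0.14 (SE), adjusted P = 0.0343); like Cdkn2a and Ccnd1 it was looked up after the values were seen. Cdkn1a, the p21 inhibitor and a target of p53, was at 152 and 162 CPM with vehicle and 111 and 120.3 CPM with CCM, and its adjusted P value of 0.0577 missed the threshold (log2 FC -0.44). None of 17 tested p53 targets was called, and 2 of them had a log2 FC above zero, with a median of -0.14. Both CCM libraries lay below both vehicle libraries for 11 of the 17, and for 24% of all tested genes. What the p53 ER/ER genotype means for these targets was not tested. Cdkn2a had a log2 FC of -0.49 (adjusted P = 0.15). Ccnd1, cyclin D1, had 0.15 (adjusted P = 0.584).

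Promoter windows of both lists and of the called genes were read from the RefSeq promoter table on GRCm38.p6, which covers 250 bases before and 50 after each start. Windows were held for 84 of the 109 higher and 35 of the 49 lower genes. Searched on both strands were TTTNGCGC, the letters of a strong E2F site, TTTGAA, those of the cell cycle homology region, and CCAAT, those bound by NF-Y. These motifs, and the genes shown, were chosen after the direction of the lists was known. TTTNGCGC was in 35% of the windows of the DNA replication list, 4.17% of those of the mitosis list, 17.5% of those of all higher genes, 2.38% of those of lower genes, 2.45% of those of all tested genes and 1.38% of all windows in the table. TTTGAA was in 79.2% of mitosis windows, 10% of DNA replication windows, 34% of those of higher genes, 11.9% of those of lower genes, 12.1% of those of tested genes and 17.9% of all windows. CCAAT was in 91.7%, 70%, 53.4%, 26.2%, 38.2% and 37.4% of the windows of the mitosis list, the DNA replication list, higher, lower and tested genes and the whole table. For TTTNGCGC and TTTGAA the shares of lower genes were near those of tested genes, but they rest on 1 and 5 of 42 windows, too few to judge closeness. The shares are of windows, of which a gene can have more than 1. There were 103 for the higher genes, 20 for the DNA replication list and 24 for the mitosis list. Shares of both lists describe their members and do not depend on which genes were called. The higher genes include 30 list members, and no share is given for the other 79. A match describes letters and is not a bound site.

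The windows of the 3 called genes of lowest P value in each list that have one are shown, so that the motifs can be seen in place; capitals mark every match of the 3 motifs on either strand, and overlapping matches run together. Windows, 5′ to 3′ along the gene's strand, are chr8:75109259-75109558 (plus strand) for Mcm5, chr1:128359656-128359955 (minus) for Mcm6, chr1:20820263-20820562 (minus) for Mcm3, chr9:70421505-70421804 (minus) for Ccnb2, chr2:119618048-119618347 (plus) for Nusap1 and chr19:37376132-37376431 (plus) for Kif11.
Mcm5: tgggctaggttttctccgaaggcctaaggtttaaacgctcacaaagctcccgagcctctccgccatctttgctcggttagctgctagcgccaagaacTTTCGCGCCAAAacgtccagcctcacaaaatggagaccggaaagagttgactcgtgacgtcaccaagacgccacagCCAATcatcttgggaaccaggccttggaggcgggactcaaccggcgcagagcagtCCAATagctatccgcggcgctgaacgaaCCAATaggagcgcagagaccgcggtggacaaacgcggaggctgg
Mcm6: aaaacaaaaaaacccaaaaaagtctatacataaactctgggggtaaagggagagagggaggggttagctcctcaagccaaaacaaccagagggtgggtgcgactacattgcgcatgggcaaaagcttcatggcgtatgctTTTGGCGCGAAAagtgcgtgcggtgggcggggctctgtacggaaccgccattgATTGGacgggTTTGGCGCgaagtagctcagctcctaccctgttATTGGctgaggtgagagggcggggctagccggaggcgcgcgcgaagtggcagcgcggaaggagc
Mcm3: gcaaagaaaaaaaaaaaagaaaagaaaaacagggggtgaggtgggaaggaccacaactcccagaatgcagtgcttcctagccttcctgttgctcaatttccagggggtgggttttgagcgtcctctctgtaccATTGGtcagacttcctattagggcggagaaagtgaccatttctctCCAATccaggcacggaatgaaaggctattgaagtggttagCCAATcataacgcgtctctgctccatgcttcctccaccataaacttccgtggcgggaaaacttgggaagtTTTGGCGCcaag
Ccnb2: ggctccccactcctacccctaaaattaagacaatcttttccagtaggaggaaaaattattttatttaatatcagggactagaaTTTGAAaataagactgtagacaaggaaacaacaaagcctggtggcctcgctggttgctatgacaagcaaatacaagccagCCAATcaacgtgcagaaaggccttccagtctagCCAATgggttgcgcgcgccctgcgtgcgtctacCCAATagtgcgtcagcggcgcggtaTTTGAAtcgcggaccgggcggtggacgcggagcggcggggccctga
Nusap1: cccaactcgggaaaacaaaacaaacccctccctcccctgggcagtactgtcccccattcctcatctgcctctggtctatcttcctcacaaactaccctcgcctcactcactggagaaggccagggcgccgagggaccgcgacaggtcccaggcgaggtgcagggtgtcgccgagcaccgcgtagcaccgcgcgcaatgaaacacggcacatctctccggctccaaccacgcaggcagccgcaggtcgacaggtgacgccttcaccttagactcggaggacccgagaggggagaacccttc
Kif11: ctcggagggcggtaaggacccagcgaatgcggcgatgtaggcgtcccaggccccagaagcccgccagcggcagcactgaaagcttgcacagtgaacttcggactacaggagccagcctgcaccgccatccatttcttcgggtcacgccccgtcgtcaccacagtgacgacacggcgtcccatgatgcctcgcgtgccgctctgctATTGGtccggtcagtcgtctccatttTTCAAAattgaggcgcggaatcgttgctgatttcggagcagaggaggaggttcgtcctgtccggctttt
The 3 helicase genes hold 2, 3 and 1 matches of TTTNGCGC in this order and none of TTTGAA. Ccnb2 holds 2 matches of TTTGAA and 3 of CCAAT, Kif11 holds 1 of each, and Nusap1 holds none of the 3 motifs. The windows of Plk4, C1s1, Serpinb9b and Timp3 were read too and hold none.

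Outside the cell cycle, the higher gene with the lowest P value was C1s1, which codes for the C1s protease of the first complement component. It was at 32.6 ± 3.03 CPM with vehicle and 72.3 ± 4.31 CPM with CCM (SD, n = 2 each), 2.21-fold higher (log2 FC 1.15 ± 0.11 (SE), adjusted P = 0.0052). Both CCM libraries (75.4 and 69.3 CPM) were above both vehicle libraries (30.5 and 34.8 CPM). It was the 1 gene called of 9 complement genes tested, whose median log2 FC was 0.04. The gene lies at chr6:124530345-124542359 on GRCm38 (GENCODE M21), and a transcript on the other strand, Gm16567, overlaps it.

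Among lipid genes, Fabp4, a fatty acid carrier and a target of PPAR-gamma, was at 13.3 and 14.8 CPM with vehicle and 35 and 34.6 CPM with CCM, 2.47-fold higher (log2 FC 1.30 ± 0.18 (SE), adjusted P = 0.0208). It was the 1 gene called of 22 for fatty acid oxidation and PPAR targets, and the median of that list was -0.04. Pla2g4a, the phospholipase that frees arachidonic acid, was at 55.7 and 55.5 CPM with vehicle and 78.4 and 77.7 CPM with CCM (log2 FC 0.49, adjusted P = 0.0466), just inside the threshold, and was not called with DESeq2's size factors. None of 12 genes of fatty acid synthesis and desaturation was called. Of them 11 had a log2 FC above zero, with Srebf1, a regulator of these genes, at 0.32 (adjusted P = 0.118) and Acsl3, an acyl-CoA synthetase, at 0.41 (adjusted P = 0.0763).

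Etv4, an ETS factor and an output of ERK signalling, was at 7.71 and 12.2 CPM with vehicle and 26.8 and 21.5 CPM with CCM (log2 FC 1.26 ± 0.21 (SE), adjusted P = 0.0287). No other of 19 genes for ERK feedback and output was called, and their median was 0.00. Ndrg2, a differentiation-associated gene, had the highest log2 FC of the called genes, 1.51 ± 0.29 (SE), from low levels of 3.02 and 5.09 CPM with vehicle and 13.8 and 9.65 CPM with CCM (adjusted P = 0.039). Its groups did not overlap, but the CCM libraries differed by more than 4 CPM. Secreted and surface genes called higher included Il1rn, the antagonist of the IL1 receptor, at 93.4 and 96.2 CPM with vehicle and 144 and 131 CPM with CCM, and Ulbp1, a ligand of NKG2D, at 65.01 and 84.5 CPM with vehicle and 117 and 117 CPM with CCM. Ndrg2, Il1rn and Ulbp1 were picked after their values were seen.

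Rsrp1 and Neat1 were among the 15 higher genes of lowest P value. Rsrp1, which codes for an arginine- and serine-rich protein, was at 118 and 115 CPM with vehicle and 196 and 185 CPM with CCM (log2 FC 0.71 ± 0.099 (SE), adjusted P = 0.0208), and Neat1, the long noncoding RNA that scaffolds paraspeckles, was at 164 and 166 CPM with vehicle and 244 and 262 CPM with CCM (log2 FC 0.62 ± 0.087 (SE), adjusted P = 0.0208). Picked after the values were seen, Arglu1, a coregulator of transcription and splicing, was at 105 and 102 CPM with vehicle and 163 and 155 CPM with CCM and Clk2, a kinase of splicing factors, was at 30.5 and 30.99 CPM with vehicle and 47.6 and 43.4 CPM with CCM, and both were called. In the same way picked, Malat1, another abundant nuclear RNA, was not called, with a log2 FC of 0.30 (adjusted P = 0.616). The mitochondrial ribosomal RNA mt-Rnr1, also outside the rule, was called, at 151 and 126 CPM with vehicle and 264 and 234 CPM with CCM (log2 FC 0.85 ± 0.15 (SE), adjusted P = 0.0287). None of 7 mitochondrially encoded mRNAs was called; all 7 were above zero with a median of 0.38, and their median levels over the vehicle mean were 0.20 and -0.20 in the vehicle libraries and 0.48 and 0.30 with CCM. The share of mitochondrial counts given above moved in the same direction, and its part in these values was not tested.

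Of the 49 lower genes, 1 led by P value: Serpinb9b, an intracellular serpin of the family that inhibits granzymes. It was at 80.1 ± 11.2 CPM with vehicle and 36.1 ± 2.11 CPM with CCM (SD, n = 2 each), 2.22-fold lower (log2 FC -1.15 ± 0.12 (SE), adjusted P = 0.00554). Both CCM libraries (34.6 and 37.6 CPM) were far below the vehicle libraries (88.02 and 72.2 CPM). Its paralog Serpinb9, the inhibitor of granzyme B, was at 287 and 275 CPM with vehicle and 203 and 207 CPM with CCM (log2 FC -0.45), and Serpinb1a, an inhibitor of neutrophil elastase, was at 511 and 456 CPM with vehicle and 258 and 292 CPM with CCM (log2 FC -0.81 ± 0.13 (SE), adjusted P = 0.0235). All 3 were called. Serpinb9 was picked after the values were seen, and paralogs may share reads, so their separate levels are uncertain. Serpinb9b lies at chr13:33027416-33041884 on GRCm38.

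Of the matrix genes, Timp3, the matrix-bound inhibitor of metalloproteinases, was at 4170 and 4873 CPM with vehicle and 2622 and 2595 CPM with CCM, 1.73-fold lower (log2 FC -0.79 ± 0.12 (SE), adjusted P = 0.0235). It was the 1 gene called of 23 matrix proteases and inhibitors (median -0.07), and Syn3 overlaps it on the other strand in the annotation used. Itga3, a laminin-binding integrin chain, was at 23.7 and 22.5 CPM with vehicle and 8.10 and 11.3 CPM with CCM (log2 FC -1.26 ± 0.20 (SE), adjusted P = 0.0251). Tinagl1 and the laminin-related Ntn4, both matrix proteins, were at 115 and 90.3 CPM with vehicle and 55.5 and 64.8 CPM with CCM and at 33.6 and 40.7 CPM with vehicle and 22.9 and 22.9 CPM with CCM. Ntn1, a guidance cue of the netrin family, was at 53.3 and 65.8 CPM with vehicle and 34.4 and 38.2 CPM with CCM. Tinagl1, Ntn4 and Ntn1 were called and were picked after the values were seen. No collagen chain of 29 tested was called, and 14 of these were above zero.

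Receptors and ligands were also among the lower genes. Tnfrsf21, death receptor 6, was at 65.5 and 75.5 CPM with vehicle and 35.5 and 36.7 CPM with CCM (log2 FC -0.97 ± 0.13 (SE), adjusted P = 0.0208). Ptprd, a receptor tyrosine phosphatase, was at 64.6 and 69.3 CPM with vehicle and 39.05 and 36.2 CPM with CCM (log2 FC -0.83 ± 0.11 (SE), adjusted P = 0.0208). The groups did not overlap for either. Inhbb, the activin B subunit, was at 21.8 and 28.4 CPM with vehicle and 13.4 and 14.5 CPM with CCM (log2 FC -0.85, adjusted P = 0.0287), 1 of 27 genes of the BMP and TGF-beta pathway to be called. Wnt11, a Wnt ligand, was at 7.26 and 4.995 CPM with vehicle and 1.69 and 2.87 CPM with CCM (log2 FC -1.43, adjusted P = 0.0454), 1 of 25 Wnt genes. These are low levels, and the lower CCM value of Wnt11 was above the floor. Ndnf, a secreted growth factor, was at 31.1 and 26.4 CPM with vehicle and 9.45 and 12.2 CPM with CCM (log2 FC -1.41 ± 0.20 (SE), adjusted P = 0.0213), and Fam180a, a secreted protein of little known function, was at 5.47 and 7.40 CPM with vehicle and 1.69 and 1.62 CPM with CCM and had the most negative log2 FC of the called genes, -1.96 ± 0.27 (SE). Tlr2, the receptor of bacterial lipopeptides, was picked after the values were seen and was at 66.1 and 57.4 CPM with vehicle and 38.7 and 41.01 CPM with CCM (log2 FC -0.63).

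Metabolic enzymes among the lower genes were Abat, the transaminase of GABA, at 89.6 and 109 CPM with vehicle and 58.95 and 55.3 CPM with CCM (log2 FC -0.80 ± 0.12 (SE), adjusted P = 0.0235), and Ada, adenosine deaminase, at 52.7 and 40.8 CPM with vehicle and 22.1 and 22.6 CPM with CCM (log2 FC -1.06 ± 0.18 (SE), adjusted P = 0.0287). The LIM protein Crip2 was at 103 and 109 CPM with vehicle and 64.01 and 66.05 CPM with CCM and the vesicle transport protein Sft2d2 was at 47.1 and 50.04 CPM with vehicle and 28.9 and 29.1 CPM with CCM, with log2 FC of -0.71 and -0.74. Thsd7a, a membrane protein with thrombospondin repeats, had 72.7 and 85.5 CPM with vehicle and 46.1 and 43.7 CPM with CCM, and Parm1, a mucin-like membrane protein, had 12.7 and 13.04 CPM with vehicle and 5.06 and 5.93 CPM with CCM. Both fell with CCM and were higher with TCM than with LA: Thsd7a was at 69.9 and 73.1 CPM with LA and 87.4 and 103 CPM with TCM, and Parm1 at 8.75 and 7.20 CPM and 18.3 and 22.7 CPM. The heat map of the lower genes shows all 49 across the libraries.

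**Figure D3:**
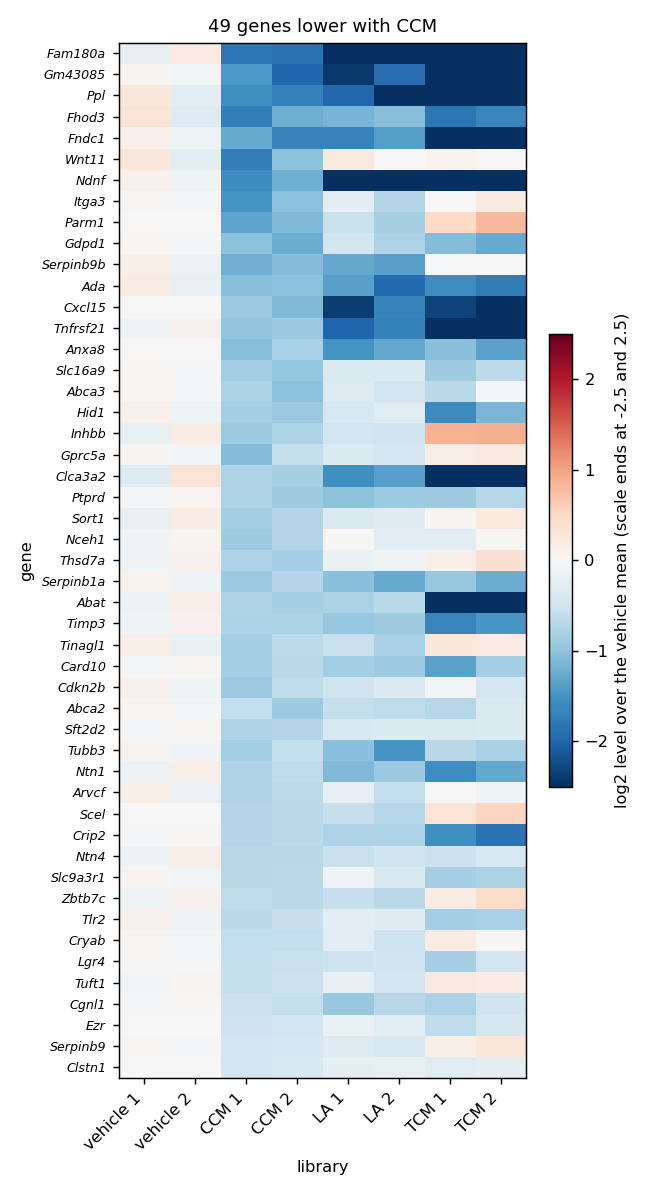
Log2 level over the vehicle mean (colour, blue lower and red higher, with the scale ended at -2.5 and 2.5) of the 49 genes lower with CCM, in 8 libraries, ordered by log2 FC. Both CCM columns are blue in all rows; Fam180a and Ndnf are darker still with LA and TCM, while Parm1, Inhbb and Scel turn red with TCM.

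Most other programmes held no called gene, where 1.3% of all tested genes were called. At that share lists of this size often hold no call or 1, so such counts, here and above, say little about a programme. Of the 41 lists, 32 had none, among them glycolysis and glucose uptake (21 tested, median -0.16), hypoxia targets (16, median -0.16), ATF4 targets of amino acid stress (34, median -0.14), sterol synthesis and uptake (23, median -0.07), nuclear-encoded OXPHOS subunits (76, median 0.00) and contractile genes (15, median 0.13). Of the 76 cytoplasmic ribosomal protein genes, 75 had a log2 FC above zero, with a median of 0.10, and many of these have pseudogenes that can take reads. Only 19 of the 76 (25%) had both CCM libraries above both vehicle libraries, against 25.8% of all tested genes, and the list medians over the vehicle mean were 0.07 and -0.07 with vehicle and 0.03 and 0.19 with CCM, so the groups overlap. YAP/TEAD targets leaned the other way, with 1 of 19 above zero (median -0.14), as did ER chaperones and unfolded protein response genes, with 1 of 20 (median -0.14). Both CCM libraries lay below both vehicle libraries for 11 of the 19 and 9 of the 20, against 24% of all tested genes. Medians by library were not computed for them. Of members of these lists, Ankrd37, a hypoxia target, was at 20.7 and 14.2 CPM with vehicle and 9.02 and 9.37 CPM with CCM (adjusted P = 0.0611) and Hk2, a hexokinase, was at 41.5 and 35.9 CPM with vehicle and 29.2 and 28.4 CPM with CCM (adjusted P = 0.11).

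Serum-response immediate early genes had the most negative median of all lists, -0.43, yet none of 25 was called and 5 were above zero. Klf2, a transcription factor, was at 42.6 and 41.7 CPM with vehicle and 30.02 and 28.6 CPM with CCM (log2 FC -0.52 ± 0.11 (SE), adjusted P = 0.0518), and Junb, an AP-1 subunit, was at 84.5 and 71.2 CPM with vehicle and 47.1 and 46.9 CPM with CCM (log2 FC -0.73 ± 0.17 (SE), adjusted P = 0.0611). The vehicle libraries themselves were apart, with list medians of 0.16 and -0.16 over the vehicle mean against -0.44 and -0.46 with CCM. Egr1, picked after its values were seen, shows this at 311 and 165 CPM with vehicle and 134 and 121 CPM with CCM (adjusted P = 0.216). Without vehicle replicate 1 the list's median was -0.20, with no gene called. The count of lower calls depended on the fit, with 12 under no filter on low counts, 9 with only the 4 libraries compared, 4 with DESeq2 and 3 with the replicate block. Leaving out either TCM library gave 3 and either LA library 2, both alternatives added after seeing the data.

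Interferon-induced genes had a median log2 FC of 0.36 over 62 tested genes, with 50 above zero and none called. That median rested on 1 library. It was 0.61 over the vehicle mean in CCM replicate 1 and 0.00 in CCM replicate 2, and without CCM replicate 1 the fitted median was -0.01. CCM replicate 1 had the highest level of the 4 libraries for 49 of the 62 genes. Ifit2, an antiviral protein that binds RNA, was at 29.9 and 28.8 CPM with vehicle and 47.6 and 39.8 CPM with CCM (log2 FC 0.58 ± 0.13 (SE), adjusted P = 0.0624), and Slfn9, of the Schlafen family, was at 14.4 and 17.9 CPM with vehicle and 32.2 and 24.5 CPM with CCM (log2 FC 0.81 ± 0.18 (SE), adjusted P = 0.0585). Ifit1, picked after its values were seen, was at 6.48 and 5.46 CPM with vehicle and 26.7 and 6.12 CPM with CCM (adjusted P = 0.21), so that CCM replicate 2 lay between the vehicle libraries. Without CCM replicate 2, the interferon-induced Ifit1, Ifit3 and Iigp1 were called. CCM replicate 1 was also the library with Cxcl13 counts.

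**Figure D4:**
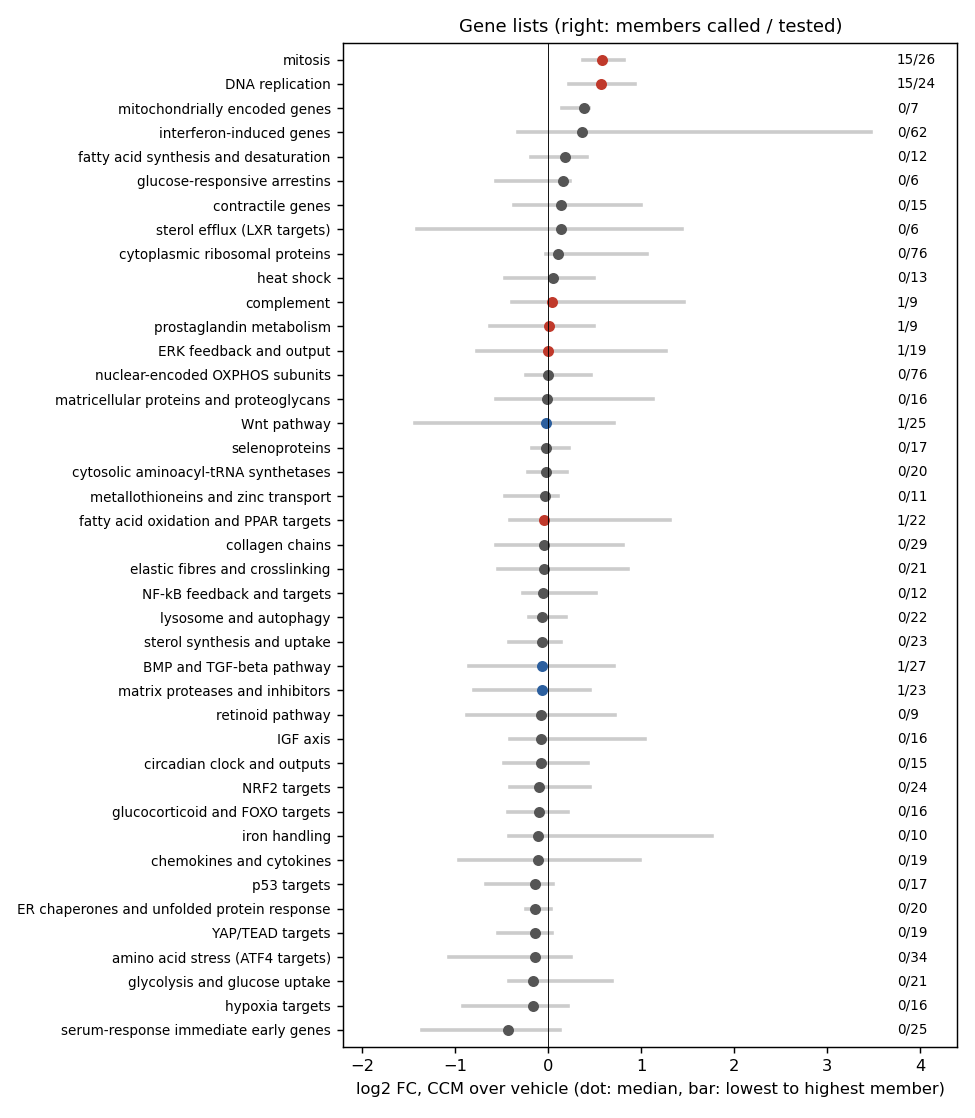
Median log2 FC of CCM over vehicle (dot) with the lowest and highest member (bar) for 41 gene lists; at the right, members called over members tested. Red dots are lists with members called higher, blue dots lists with members called lower; mitosis and DNA replication have 15 called genes each and no other list has more than 1.

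The study's methods list TaqMan assays for a few single transcripts, of which 6 passed the count limit here, and none of these was called. Pdpn, podoplanin, was at 114 and 138 CPM with vehicle and 139.9 and 134 CPM with CCM (log2 FC 0.12 ± 0.10 (SE), adjusted P = 0.728), with 1 vehicle value between the CCM values. The lactate transporter gene Slc16a1 was at 32.8 and 32.9 CPM with vehicle and 33.1 and 36.1 CPM with CCM (adjusted P = 0.866) and Ldha, the lactate dehydrogenase subunit, was at 629.6 and 586 CPM with vehicle and 528 and 556 CPM with CCM (adjusted P = 0.592). Il7, the lymphocyte survival factor, had 0.558 and 0.925 CPM with vehicle and 1.26 and 1.53 CPM with CCM (adjusted P = 0.409) and Slc16a3, another lactate transporter gene, had 1.005 and 0.833 CPM with vehicle and 1.52 and 1.43 CPM with CCM (adjusted P = 0.618), both at low levels. Actb, for actin, had a log2 FC of 0.01 (adjusted P = 0.989). Thy1 was below the count limit and was not tested.

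The 4 libraries outside the comparison hold another pair of a conditioned and an unconditioned medium, TCM against RPMI with LA; none of them is in the contrast of CCM with vehicle, though all share the fit. Of the 158 genes, 109 (69%) were called there too, where 16.1% of all tested genes were called (8.34% higher and 7.77% lower). The direction was mostly the opposite: 93 of the 109 were called the other way and 16 the same way. Of the 109 genes higher with CCM, 80 were lower with TCM than with LA, 6 were higher and 23 were not called. Of the 49 genes lower with CCM, 13 were higher with TCM than with LA, 10 were lower and 26 were not called. Against vehicle, LA was called higher for 58 of the 109 higher genes and lower for 26 of the 49 lower genes, with none opposite. TCM was called lower than vehicle for 45 of those 109 and higher for 8. A direction between TCM and LA can thus come from either medium, which was not tested. The vehicle libraries also picked these genes, and no share over all tested genes is given.

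Both cell cycle lists went this way. Of the 15 called DNA replication genes 13 were lower with TCM than with LA, and of the 15 called mitosis genes all 15 were. Over the whole lists, called with CCM or not, 18 of 24 DNA replication genes and 26 of 26 mitosis genes were called lower with TCM than with LA. Ccnb2 was at 44.8 and 43.3 CPM with LA and 19.5 and 19.6 CPM with TCM (log2 FC of TCM over LA -1.17, adjusted P = 8.81e-05). Mcm5 was at 112 and 103 CPM with LA and 57.2 and 60.6 CPM with TCM (log2 FC -0.86, adjusted P = 0.000159). The LA and TCM libraries did not overlap for either. Against vehicle, the log2 FC of Ccnb2 was 0.72 with LA and -0.45 with TCM, both called. That of Mcm5 was 0.57 with LA, called, and -0.29 with TCM, not called. Of the genes higher with CCM few went the same way: C1s1 was at 39.3 and 42.8 CPM with LA and 128 and 131 CPM with TCM (log2 FC 1.66), Fabp4 at 31.8 and 34.2 CPM and 118 and 79.8 CPM (log2 FC 1.58), and Neat1 at 156 and 152 CPM and 243 and 245 CPM (log2 FC 0.66). The lower genes were closer to even, with 10 called the same way and 13 the opposite way. Among them, Abat (56.8 and 61.9 CPM with LA and 13.1 and 15.6 CPM with TCM), Ndnf, Timp3 and Tnfrsf21 were lower with TCM as well. Serpinb9b was higher with TCM than with LA, at 32.8 and 30.9 CPM with LA and 80.3 and 79.02 CPM with TCM, a log2 FC of 1.33. Its TCM level was near that of vehicle (log2 FC of TCM over vehicle -0.006, adjusted P = 0.981). Its LA level was below vehicle, as with CCM (log2 FC of LA over vehicle -1.33, adjusted P = 0.000317).

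**Figure D5:**
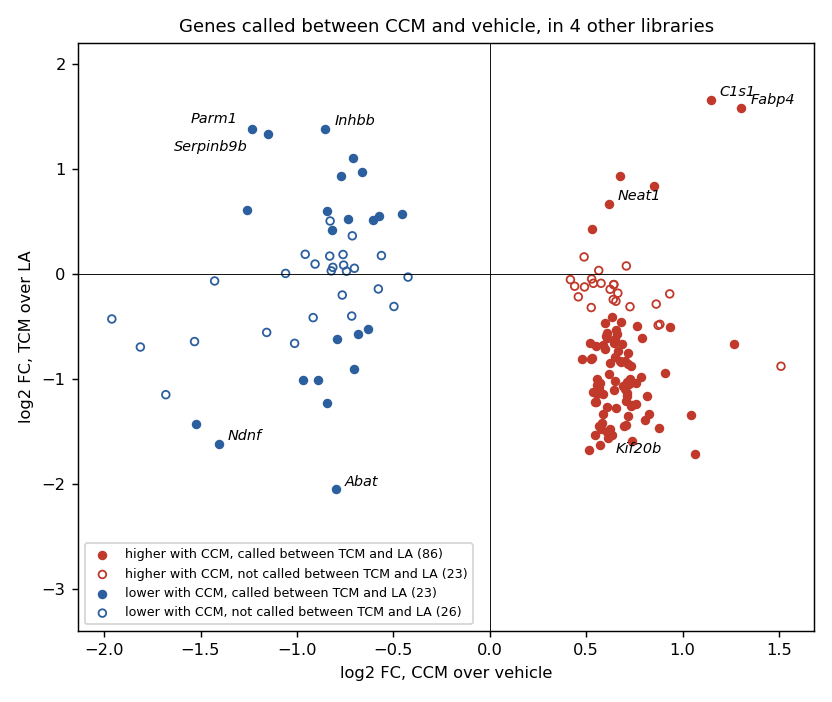
Log2 FC of CCM over vehicle (horizontal) against log2 FC of TCM over LA (vertical) for the 158 genes called between CCM and vehicle; the 2 axes share no library. Filled points were also called between TCM and LA, open points were not; most red points (higher with CCM) lie below zero, and C1s1 and Fabp4 lie highest.

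The LA and TCM libraries can also be read against vehicle, which then serves in every comparison, so these values are only set side by side. Of the 109 genes higher with CCM, the LA mean was above the vehicle mean for 106 and the TCM mean for 28. Of the 49 lower genes, the LA mean was below vehicle for 48 and the TCM mean for 36. These genes were picked by their difference from the same vehicle libraries, which by itself raises such counts. No share over all tested genes is given beside them. For the DNA replication list, the median log2 level over the vehicle mean was 0.59 in both CCM libraries, 0.54 and 0.38 with LA, and -0.13 and -0.14 with TCM. For the mitosis list it was 0.66 and 0.57 with LA and -0.85 and -0.87 with TCM. For 3 genes picked after their values were seen, LA lay nearer to vehicle than CCM did, a difference that was not tested: C1s1 was at 39.3 and 42.8 CPM with LA, Rsrp1 at 112 and 98.8 CPM and Wnt11 at 7.22 and 5.996 CPM, where the CCM values were 75.4 and 69.3, 196 and 185 and 1.69 and 2.87 CPM.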

How the data were processed

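The data are 8 poly(A) RNA libraries from 1 mouse FRC line, 2 for each of the 4 conditions in the labels. The authors aligned directional reads to GRCm38 with STAR 2.7.0a, counted them per gene with featureCounts (Subread 2.0.1) and deposited the raw counts. Whether the counting used strand is not given in the sources used here, and 75 of the 158 called genes overlap another annotated gene. A second deposited table, normalized by its name, held 12137 genes whose counts equalled the raw counts in 100% of values, so it was not used for levels. Columns not used numbered 0.

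Values were computed in R 4.3.3. Counts were scaled by TMM factors and fitted with edgeR 4.0.16 (quasi-likelihood, robust), in 1 model of the 8 libraries with a mean per condition. Benjamini-Hochberg adjustment ran over all tested genes. Calls needed adjusted P below 0.05 and a log2 FC over 0.39 in size. The common biological coefficient of variation was 0.0903. Standard errors were taken as log2 FC over the root of F, with a median of 0.14. CPM use TMM-scaled totals, so they compare libraries and not genes of different length; log2 levels by library use a prior count of 2. P values measure the spread between cultures of 1 line. Named genes were the 15 called genes of lowest adjusted P value in each direction, up to 5 called members of each list (the 2 of lowest P value where none was called) and the transcripts of the TaqMan assays listed in the study's methods, of which not all are named; others are marked. The members, lists and tests were chosen with earlier results of these data known. Gene positions are from GENCODE M21. Alternatives were DESeq2 1.42.0 and its size factors, no TMM factors, other filters and fold thresholds, a replicate block, only the libraries compared, and leaving out libraries.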

Additional observations from a re-analysis of the deposited data

How the results depend on the processing

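Called genes between CCM and vehicle numbered 158, and 142 to 197 with DESeq2's size factors, no TMM factors, a minimum of 10 counts in every library or no fold threshold. Higher genes were 69% of the calls, 76.6% (of 197) without TMM factors and 58.2% (of 237) with DESeq2. The count moved to 584 with no filter on low counts, 679 with only the 4 libraries compared, 84 at a log2 FC beyond 0.68 and 19 beyond 1. Leaving out 1 of the 8 libraries gave 0 to 497 calls; where this left a condition with 1 library, that library was assumed to vary like the others. Leaving out TCM or LA libraries was added after seeing the data; the count was 491 with both TCM libraries left out, and 115 with both LA libraries left out. Replicate numbers were not taken to pair the samples: deviations of same-numbered CCM and vehicle libraries had a correlation of -0.0406 across genes, and those of TCM and LA libraries 0.106; the fit with the replicate block called 193 genes, 153 of them among the 158, and changed 6 calls among the named genes. Pla2g4a was lost (adjusted P = 0.0501), and Ankrd37, Junb, Prelp, Aldh1a1 and Pappa2 were gained.

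The share of these genes called between TCM and LA was 69%, 45.2% when each comparison used only its own libraries and 42.1% at a log2 FC beyond 1, where 19 genes remain; with the replicate block it was 73.1%. It was 55.1% to 64.7% with 1 TCM or LA library left out. Since every called gene had both CCM libraries on 1 side of both vehicle libraries, leaving out 1 of these could hardly turn a sign. No called gene among those named changed sign with another scaling, filter or test, the block, only the 4 libraries, or 1 CCM or vehicle library left out. Of uncalled ones, Actb (log2 FC 0.01) fell below zero in 5 of these fits, down to -0.07 without vehicle replicate 1, where Pdpn was at -0.01. Libraries of 8232889 to 14107964 counts limit genes near the floor most.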
